A study of Danio rerio with 16 samples.

Results

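Brains of adult zebrafish of the strain labelled SH were compared with brains of the strain labelled Nadia, over 4 pools of each strain, 8 of the 16 arrays of the study. Each pool held the brains of 2 to 5 fish of 1 sex and 1 strain from 1 tank, 4 to 6 months old, and each strain had 2 female pools (F1, F2) and 2 male pools (M1, M2). The labels give SH as a domesticated strain and Nadia as a wild one. All fish were kept at 28 °C under 14 h of light and 10 h of dark, and had been through the same behavioral assay before they were anesthetized and dissected. The other 8 arrays, 4 labelled TM1 and 4 labelled Gaighatta, a domesticated and a wild strain by their labels, entered the model for the spread between pools. RNA was hybridised to the Affymetrix Zebrafish Genome Array (10 µg of total RNA per array), and each value below is a log2 expression value, so that a difference of 1 is a 2-fold change. The table holds 7958 probe sets, of which 7922 were tested after the 36 control probe sets had been left out. Of these, 5639 carry 1 gene symbol and measure 4922 genes.

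The direction of every difference rests on the strain labels, and these disagree with the tables of the study. Matched value by value within 0.001, the 4 arrays labelled SH carry the values that the tables print as Nadia, and the 4 labelled Nadia carry those printed as SH, for 1645 of 1645 probe sets in each array. The arrays labelled TM1 and Gaighatta are exchanged in the same way. For that pair the arrays hold a measurement that bears on the names, since TM1 is the strain that carries a GFP transgene. The GFP control probe set read 2.99 to 3.36 in the arrays labelled TM1, close to its level in the strains with no transgene (2.80 to 2.97 in those labelled SH and 2.93 to 3.18 in those labelled Nadia), and 8.58 to 10.46 in the arrays labelled Gaighatta. The GFP signal thus goes against the deposited labels of TM1 and Gaighatta and goes with the names in the tables. SH and Nadia carry no such marker, so their labels could not be checked in this way, but they are exchanged in the same table, and the directions given below may be the reverse of those between the strains themselves. The pools on each side of the comparison are the same under either naming, so a gene given here as higher in SH would be higher in Nadia by the names of the tables. SH, Nadia, TM1 and Gaighatta stand throughout for the libraries labelled so, and differences are SH minus Nadia.

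The arrays measured brain in both strains. A fish brain keeps radial glia into adult life as neural stem cells, and these cells also make estrogen from androgen with a brain form of aromatase, an enzyme for which teleost brains are known. The adult brain also holds neurons, oligodendrocytes, microglia and vessels, and a dissection may bring along pituitary, meninges, skin or muscle. The level of snap25a, a SNARE protein of synaptic vesicle release, was 12.09 ± 0.09 in SH and 12.21 ± 0.08 in Nadia (SD, n = 4 each). For slc1a2b, a glial glutamate transporter, it was 12.004 ± 0.09 in SH and 11.997 ± 0.07 in Nadia (SD, n = 4 each), and for fabp7a, which binds fatty acids in radial glia, it was 11.56 ± 0.05 in SH and 11.58 ± 0.13 in Nadia (SD, n = 4 each). These 3 genes did not pass the test (adjusted p = 0.455, 0.98 and 0.941). The mean over the 14 neuron markers was 9.83, 9.88, 9.91 and 9.92 in the SH pools and 9.94, 9.74, 9.80 and 9.80 in the Nadia pools, and over the 5 markers of myelin and oligodendrocytes 8.36, 8.26, 8.13 and 8.21 in the SH pools and 8.21, 8.12, 8.30 and 8.37 in the Nadia pools; the ranges of the strains overlapped for both lists. In pooled whole brains, fewer cells of a type and less RNA per cell cannot be told apart, here or in any result below.

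SH brains differed from Nadia brains at 448 of 7922 probe sets (5.66%), at an adjusted p under 0.05 in limma. Of these, 205 were higher in SH (2.59% of those tested) and 243 were lower (3.07%), and 76 differed by at least 2-fold (0.959%). The median size of the difference was 0.56 among the probe sets higher in SH and 0.62 among the lower ones. No symbol is given to 67 of the higher and 104 of the lower probe sets. Counted by gene, with the probe set of highest mean for each, 228 of 4922 genes (4.63%) were called, 113 higher (2.3%) and 115 lower (2.34%) in SH. The ranges of the 4 and 4 pools did not overlap at 189 of the 205 higher and 225 of the 243 lower probe sets; over all probe sets they did not overlap at 1035 of 7922 (13.1%). Every called probe set had the same sign in females and in males. This is no separate check, since the probe sets were called by the difference over both sexes. The sequence differences between strains that can change how RNA binds a probe were not separated from expression, since the filter of the study on such polymorphisms needs single probe values. The study left the probe sets marked by that filter out of its tests, whereas they remain among the 7922 tested here. Without the pool Nadia F2, 264 probe sets were called (115 higher, 149 lower), 254 of them among the 448, and without SH M2 the higher ones came to 129. With only the 8 arrays of SH and Nadia in the model, 284 were called, 263 of them among the 448, and 185 of the 448 were not called.

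**Figure D1:**
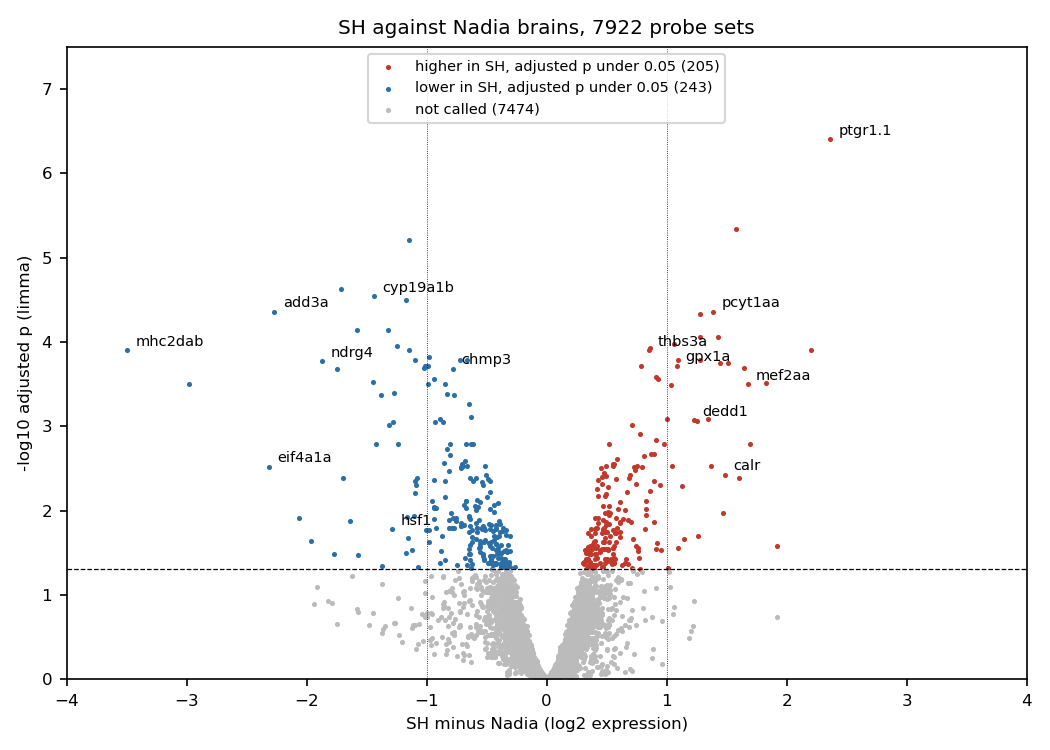
SH minus Nadia difference in log2 expression (horizontal axis) against the -log10 adjusted p of limma (vertical axis) for 7922 probe sets, with probe sets higher in SH in red, lower in SH in blue and uncalled ones in grey. The dashed line is an adjusted p of 0.05 and the dotted lines are 2-fold; the lowest adjusted p is that of ptgr1.1 on the right, and the difference of greatest size is that of mhc2dab on the left.

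The gene with the greatest increase in SH was ptgr1.1, a prostaglandin reductase that inactivates prostaglandins and leukotrienes in mammals. Its expression was 8.44, 8.02, 7.43 and 8.13 in the SH pools and 5.74, 5.71, 5.37 and 5.75 in the Nadia pools, each pair of values being given for F1, F2, M1 and M2 in that order here and below. No SH pool came within the range of the Nadia pools, and the difference was 2.36 ± 0.16 (SE), adjusted p = 3.95e-07, a 5.14-fold change. Expression of mef2aa, a transcription factor of muscle and neuron differentiation, was 7.75, 7.83, 7.83 and 7.63 in the SH pools and 5.63, 7.05, 5.62 and 6.04 in the Nadia pools. The SH pools lay close together and above all Nadia pools, of which F2 was the nearest (1.67 ± 0.23 (SE), adjusted p = 0.000319). slc20a2, a sodium-phosphate cotransporter, was 3.03-fold higher in SH (1.60 ± 0.30 (SE), adjusted p = 0.00408), at 5.55, 5.92, 6.26 and 7.40 in the SH pools and 5.03, 4.74, 4.51 and 4.44 in the Nadia pools; the male pool M2 was the highest of the SH pools. pcyt1aa, the enzyme that sets the rate of phosphatidylcholine synthesis, had 6.27, 5.61, 5.71 and 5.54 in the SH pools and 4.30, 4.24, 4.75 and 4.30 in the Nadia pools (1.39 ± 0.15 (SE), adjusted p = 4.36e-05). dedd1, a protein with a death effector domain, had 8.73, 8.45, 8.89 and 8.28 in the SH pools and 7.44, 7.42, 7.40 and 7.17 in the Nadia pools (1.23 ± 0.19 (SE), adjusted p = 0.000852). For both genes the ranges of the strains were apart.

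Other genes among the 12 greatest increases were spryd7b (1.47, adjusted p = 0.0107), gcdhb, a glutaryl-CoA dehydrogenase of lysine breakdown (1.37, adjusted p = 0.00298), cep135, a protein of the centriole (1.27, adjusted p = 0.000164), and zgc:113516, a gene with no descriptive name (1.098, adjusted p = 0.000164). In spryd7b, 1 Nadia pool (M2, 7.63) lay close to the SH pools, which began at 7.83, while the other Nadia pools were at 6.08 to 6.34. wls, which carries Wnt proteins to the cell surface for secretion, completed the group with top1a and calr (both described below). Its called probe set had 5.87, 6.09, 6.77 and 6.06 in the SH pools and 4.102, 5.06, 5.52 and 5.72 in the Nadia pools (1.099 ± 0.28 (SE), adjusted p = 0.0279). A probe set without a symbol in the platform table, zgc:92049 by the tables of the study, was higher by 2.203 (adjusted p = 0.000124), and a second probe set of zgc:92049 by 1.64 (adjusted p = 0.000204). A further one, zgc:110832 in those tables, was higher by 1.92 (adjusted p = 0.0267). When pools were left out 1 at a time, the call was lost for wls (5 of 8 pools, adjusted p up to 0.0877). The calls of zgc:110832 and of the second probe set of zgc:92049 were not followed in those fits.

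On the other side, the change of greatest size in either direction was that of the probe set that the study annotates as mhc2dab, a beta chain of the class II major histocompatibility complex, which presents peptides to helper T cells. It had 2.87, 4.33, 4.82 and 3.05 in the SH pools and 7.39, 7.88, 7.27 and 6.52 in the Nadia pools. Every Nadia pool exceeded every SH pool, and the difference was -3.50 ± 0.43 (SE), adjusted p = 0.000124, 11.30-fold lower in SH. The means of the other strains were 7.12 in TM1 and 7.76 in Gaighatta, near that of Nadia. A probe set with no symbol in the platform table, zgc:64003 by the tables of the study, was low and nearly equal in all SH pools (2.73, 2.67, 2.74 and 2.73). It was higher and more varied in the Nadia pools (3.91, 6.12, 6.06 and 6.71), with a difference of -2.98 ± 0.42 (SE), adjusted p = 0.000319. The lowest values on the SH arrays were 2.29 to 2.44, so these SH levels lie near the floor, as do those of mhc2dab in SH F1 and M2. The sizes of both differences thus rest on values near background. add3a, an adducin that caps actin filaments and joins them to spectrin, had 5.73, 6.62, 6.87 and 7.06 in the SH pools and 8.63, 9.24, 8.84 and 8.66 in the Nadia pools (-2.27 ± 0.24 (SE), adjusted p = 4.36e-05). ndrg4, a gene of the NDRG family expressed in brain and heart, had 8.12, 7.67, 8.42 and 7.69 in the SH pools and 9.97, 9.90, 9.73 and 9.80 in the Nadia pools (-1.87 ± 0.24 (SE), adjusted p = 0.000169). In both genes the SH pools were below all Nadia pools, by 4.82-fold and 3.66-fold on average.

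cyp19a1b, the brain aromatase of radial glia, was 2.71-fold lower in SH. Its expression was 9.35, 9.47, 9.87 and 9.32 in the SH pools and 10.84, 11.02, 10.87 and 11.04 in the Nadia pools. The Nadia pools lay close together, and all SH pools were below them (difference -1.44 ± 0.14 (SE), adjusted p = 2.88e-05). The difference was -1.52 between female pools and -1.36 between male pools. hsf1, the transcription factor of the heat shock response, was lower by both of its probe sets: the first had 5.27, 4.04, 5.43 and 5.98 in the SH pools and 6.26, 6.72, 6.45 and 6.43 in the Nadia pools (-1.29 ± 0.30 (SE), adjusted p = 0.0167), and the second differed by -0.92 (adjusted p = 0.0161). The SH pools of hsf1 spread widely and still did not reach the Nadia pools. cd99l2, a membrane protein related to CD99, was also lower by both probe sets (-1.38 and -0.80, adjusted p = 0.00042 and 0.00162), as was zgc:73226 (-1.28 and -0.75, adjusted p = 0.0009 and 0.0134). LOC100002043 was lower by 1.70 (adjusted p = 0.00408), with SH pools at 3.48 to 3.79 and Nadia F1 at 4.19, below the other Nadia pools at 5.69 to 5.78. With single pools left out in turn, the test was no longer passed by hsf1 (Nadia F2, adjusted p = 0.0561).

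**Figure D2:**
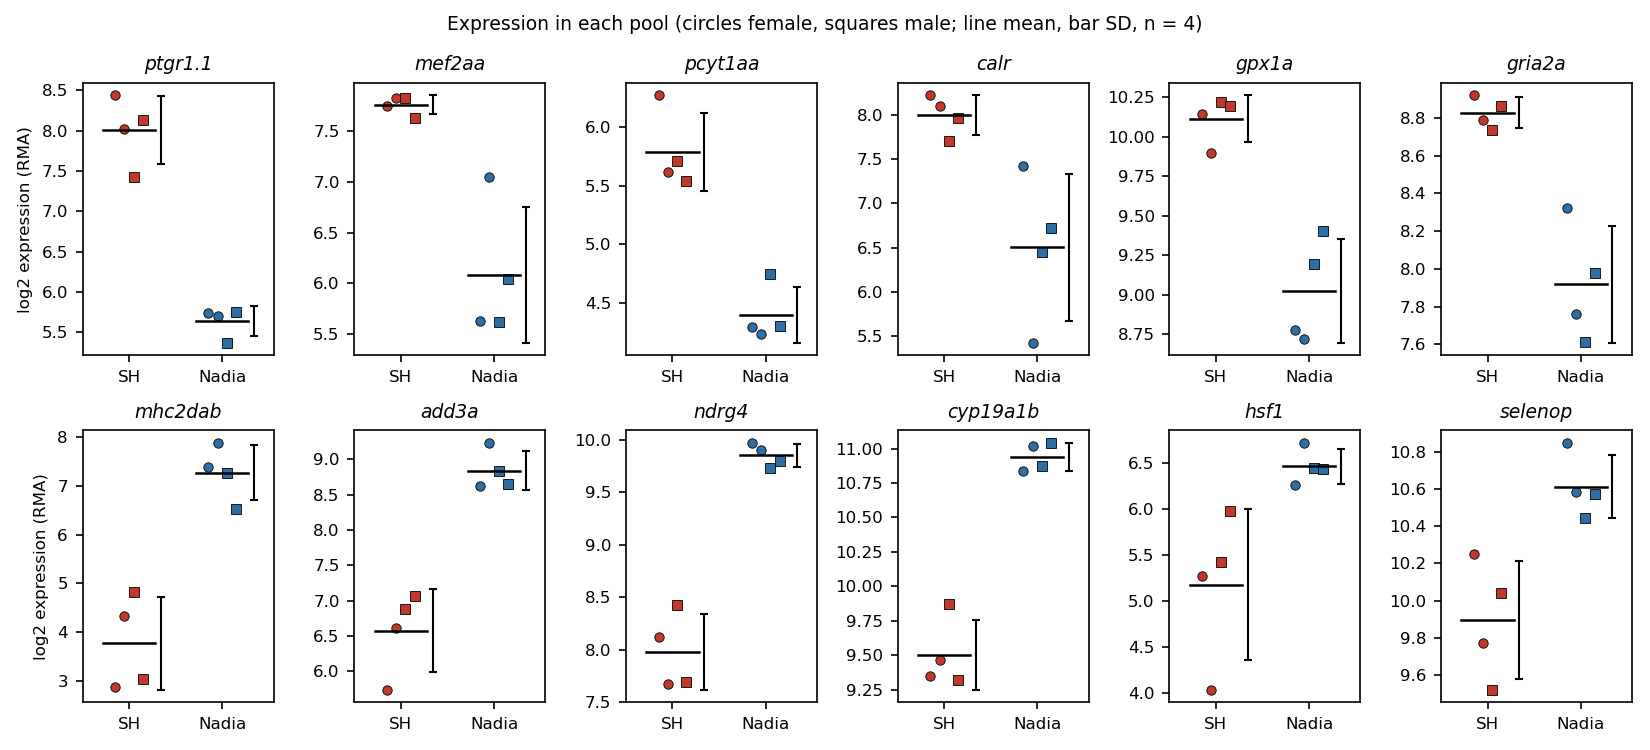
Log2 expression (vertical axes, a separate scale for each gene) of 12 genes in the 4 SH pools (red, left) and the 4 Nadia pools (blue, right) of each panel, with circles for female and squares for male pools, a line for the mean and a bar for the SD. In all 12 panels the pools of the strains do not overlap; the top row shows genes higher in SH and the bottom row genes lower in SH, with mhc2dab at 2.87 to 4.82 in SH and 6.52 to 7.88 in Nadia. The panel of mhc2dab uses the study's name for its probe set.

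Antigen presentation held called genes in both directions. Class I molecules show peptides from inside the cell, loaded in the endoplasmic reticulum with the help of calreticulin, and class II molecules show peptides taken up from outside. Of 19 genes on this list, 2 rose and 2 fell in SH, 21.1% against 4.63% of all genes, with a median difference of -0.04 against 0.01 over all genes. The class II gene mhc2daa was dim, at 2.56, 2.75, 2.78 and 2.57 in the SH pools and 3.72, 4.22, 3.78 and 3.32 in the Nadia pools, and lower in SH (-1.097 ± 0.22 (SE), adjusted p = 0.0062). The class I gene mhc1zba had 6.55, 5.82, 6.94 and 5.66 in the SH pools and 7.17, 7.32, 7.15 and 7.36 in the Nadia pools (-1.01 ± 0.23 (SE), adjusted p = 0.0172), its SH pools being spread over more than 1 log2 unit; the call was lost with the 8 arrays alone (adjusted p = 0.0549). The calreticulins went the other way. calr had 8.22, 8.10, 7.70 and 7.96 in the SH pools and 7.42, 5.43, 6.45 and 6.72 in the Nadia pools (1.49 ± 0.27 (SE), adjusted p = 0.00374) and calr3b had 5.18, 5.62, 5.31 and 5.58 in the SH pools and 4.33, 4.69, 4.38 and 4.12 in the Nadia pools (1.05 ± 0.19 (SE), adjusted p = 0.003), with every SH pool above every Nadia pool. A second probe set of calr differed by 0.24 and did not pass (adjusted p = 0.246). Neither b2m, the light chain of class I (-0.11, adjusted p = 0.8), nor cd74a, the invariant chain of class II (-0.02, adjusted p = 0.968), was called, and a further class I gene, mhc1ufa, had a difference of 0.82 with an adjusted p of 0.198. mhc2dab is not counted on this list because its probe set carries no symbol in the platform table. In fits without 1 of the pools, the threshold was missed by mhc1zba (SH F2 or SH M2, adjusted p up to 0.0593).

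The list of microglia and leukocyte markers, cells that carry class II, had 1 of 28 genes called (3.57% against 4.63% of all genes), lgals3bp.1 (0.78, adjusted p = 0.0493). Its mean levels were 5.97, 5.99, 6.06 and 6.02 in the SH pools and 5.95, 6.16, 5.91 and 5.90 in the Nadia pools for the list as a whole, with overlapping ranges. Of 16 genes of interferon and innate immunity, 1 was called (6.25%): nlrc6, a NOD-like receptor gene, fell (-0.85 ± 0.12 (SE), adjusted p = 0.000319). Its probe set was dim, at 2.83, 2.97, 2.83 and 2.86 in the SH pools and 4.12, 3.39, 3.57 and 3.80 in the Nadia pools. None of the 10 genes of complement and coagulation passed. When pools were left out 1 at a time, the call was lost for lgals3bp.1 (6 of 8 pools, adjusted p up to 0.161).

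Among genes of DNA repair and replication, top1a, DNA topoisomerase I, rose by 1.13 (adjusted p = 0.00512), at 8.59, 8.57, 8.91 and 8.75 in the SH pools and 7.90, 7.23, 7.82 and 7.35 in the Nadia pools. rad23b, which helps to recognise damaged bases, rose by 0.64 (adjusted p = 0.0125), and xrcc6, the Ku70 subunit that binds broken DNA ends, by 0.49 (adjusted p = 0.0149). gtf2h5, a small subunit of the repair factor TFIIH, fell by 0.47 (adjusted p = 0.0419). These 4 of 51 genes were called (7.84% against 4.63% of all genes), with a median difference of 0.01; without Nadia F2, 2 were called. A second probe set of rad23b differed by 0.11. With single pools left out in turn, the test was no longer passed by gtf2h5 (6 of 8 pools, adjusted p up to 0.131) and xrcc6 (Nadia F2, adjusted p = 0.05).

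Chromatin regulators had 5 of 97 genes called (5.15% against 4.63%). Higher in SH were brms1, a subunit of histone deacetylase complexes (0.61, adjusted p = 0.0137), kdm1a, a histone H3 demethylase (0.52, adjusted p = 0.00162), and eed, a core subunit of the Polycomb complex PRC2 (0.36, adjusted p = 0.0266). The remodeler chd1l (-0.89, adjusted p = 0.000817) and setdb1b, a histone H3 methyltransferase (-0.45, adjusted p = 0.0174), were lower. kdm1a had 8.74, 8.89, 8.86 and 8.78 in the SH pools and 8.24, 8.20, 8.25 and 8.51 in the Nadia pools, and chd1l had 4.98, 4.95, 4.90 and 5.28 in the SH pools and 5.98, 6.09, 5.79 and 5.80 in the Nadia pools; the strains did not overlap in either gene. None of the 14 hox genes, which mark positions along the hindbrain and body axis, was called. A positive difference was found in 12 of the 14, against 2546 of all 4922 genes, and these counts were not tested. In fits without 1 of the pools, the threshold was missed by eed (5 of 8 pools, adjusted p up to 0.0739) and setdb1b (SH M1 or Nadia F1, adjusted p up to 0.055).

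Antioxidants and selenoproteins had 5 of 47 genes called, 10.6% against 4.63% of all genes, with a median difference of -0.02. Glutathione peroxidases are selenoenzymes that reduce peroxides, and selenop is a secreted protein that carries selenium to the brain and other tissues. gpx1a had 10.14, 9.90, 10.22 and 10.19 in the SH pools and 8.78, 8.72, 9.19 and 9.40 in the Nadia pools, and gpx4a, which reduces lipid peroxides in membranes, had 9.28, 9.26, 9.002 and 9.08 in the SH pools and 8.67, 7.97, 8.33 and 8.67 in the Nadia pools. Both rose in SH with no overlap of the pools (1.09 ± 0.14 (SE), adjusted p = 0.000191 for gpx1a; 0.74 ± 0.14 (SE), adjusted p = 0.00486 for gpx4a). txndc9, a thioredoxin-like protein, rose too (0.56, adjusted p = 0.0417). selenop fell, at 10.25, 9.77, 9.52 and 10.04 in the SH pools and 10.85, 10.58, 10.44 and 10.58 in the Nadia pools (-0.72 ± 0.16 (SE), adjusted p = 0.0153), and prdx2, a peroxiredoxin, fell by 0.37 (adjusted p = 0.0163). The paralogs gpx1b and gpx4b were not called (0.20 and -0.07, adjusted p = 0.643 and 0.867). trnau1apb, a factor of selenocysteine insertion that is not on the list and was chosen after its values had been seen, was higher by 0.73 (adjusted p = 0.00306), and by 0.32 at a second probe set, which was not called. The number of called genes on this list was 2 to 7 when single pools were left out, with 2 without SH M1. When pools were left out 1 at a time, the call was lost for txndc9 (6 of 8 pools, adjusted p up to 0.115), prdx2 (SH M1, adjusted p = 0.0531) and selenop (SH M1, adjusted p = 0.0501). The call of trnau1apb was not followed in those fits.

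Of the genes that the study measured by quantitative PCR, selenop, gfap and gad2 differed here between SH and Nadia, and the primers of the study are shown because they give the ends of the stretch of each transcript that was copied, 5′ to 3′. The sources used here do not say which primer of a pair is the forward one.
selenop, primer 1: atcctgagccacccacat
selenop, primer 2: actcttcaagttgcgctgaa
gfap, primer 1: tttcctgaagaaggtccatga
gfap, primer 2: gacacatccagatccacatga
gad2, primer 1: tggacgtcatgtggacatct
gad2, primer 2: caggcatttgtcgatctgag
The PCR values themselves are not used here. The other such genes did not pass between these strains. pomca, the precursor of the hormone ACTH, had 7.47, 9.45, 4.64 and 7.59 in the SH pools and 6.61, 8.16, 4.60 and 6.29 in the Nadia pools and spread over more than 4 log2 units within SH (0.88, adjusted p = 0.556). dio2, the deiodinase that activates thyroid hormone, had a difference of 0.51 (adjusted p = 0.705), and synprb, the vesicle protein synaptoporin, one of -0.62 (adjusted p = 0.0684).

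Lists of neurotransmission are short, and each held at most 1 called gene, against 4.63% of all genes. gria2a, a subunit of AMPA receptors for glutamate, was 1.88-fold higher in SH, at 8.92, 8.79, 8.74 and 8.87 in the SH pools and 8.32, 7.76, 7.61 and 7.98 in the Nadia pools (0.91 ± 0.15 (SE), adjusted p = 0.00145); it was the called gene of 10 on the glutamate list (10%), and its paralog gria2b had a difference of 0.02. The probe set of gad2, a glutamate decarboxylase that makes GABA, read lower by 1.11 (adjusted p = 0.0116), at 5.05, 5.30, 5.58 and 5.51 in the SH pools and 7.22, 6.16, 6.15 and 6.33 in the Nadia pools. The study names this probe set, which carries no symbol in the platform table, and gad2 rests on it alone. The paper states that PCR of gad2 did not match its arrays. It proposes that other factors may alter hybridization, so the value may not reflect expression. The other GABA-making enzyme, gad1b, had a difference of -0.08 (adjusted p = 0.675). glrba, a glycine receptor subunit, rose by 0.41 (adjusted p = 0.0326), 1 of 6 genes of GABA and glycine (16.7%), and adra2c, an inhibitory receptor for noradrenaline, by 0.49 (adjusted p = 0.0284), 1 of 16 of monoamines and acetylcholine (6.25%). sypb, a synaptophysin of synaptic vesicles, fell by 0.47 (adjusted p = 0.0343), the called gene of 27 on vesicle release (3.7%), with a difference of -0.50 at its second probe set, which was not called, and none of the 17 ion channel genes was called. With single pools left out in turn, the test was no longer passed by glrba (5 of 8 pools, adjusted p up to 0.115), sypb (5 of 8 pools, adjusted p up to 0.1) and adra2c (5 of 8 pools, adjusted p up to 0.1).

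Among 27 neuropeptide genes, pmchl, a precursor of melanin-concentrating hormone, which is made in the hypothalamus and acts on skin color and feeding, was 1.97-fold lower in SH. It had 7.90, 7.84, 7.37 and 7.88 in the SH pools and 8.91, 8.29, 8.61 and 9.11 in the Nadia pools, with no overlap (-0.98 ± 0.24 (SE), adjusted p = 0.0235). pmchl was the 1 called gene of the 27 (3.7% against 4.63% of all genes), and the median difference of the list was -0.09. Values for neuropeptide Y, npy, were -0.31 with an adjusted p of 0.104, for isotocin, oxt, -0.17 with 0.865, and for vasotocin, avp, -0.15 with 0.754. Lists of cell contact, glia and Wnt signaling also had called genes. cntn1a, ncam2 and cdh2, adhesion proteins of axons and neural cells, rose by 0.57, 0.56 and 0.47 (adjusted p = 0.0381, 0.028 and 0.0234), 3 of 45 genes of axon guidance and adhesion (6.67% against 4.63% of all genes). None of the 45 was called without Nadia F2 or without Nadia M1, and 1 was called without SH F1, SH M1 or SH M2. In radial glia, gfap, the intermediate filament protein of glia, rose while cyp19a1b fell, the 2 called of 20 markers (10%; 1 without SH F2, SH M1, Nadia F2 or Nadia M1). gfap had 7.22, 7.42, 7.62 and 7.18 in the SH pools and 7.11, 6.52, 6.67 and 7.10 in the Nadia pools (0.50 ± 0.13 (SE), adjusted p = 0.0376); Nadia F1 and M2, at 7.11 and 7.10, lay just below the lowest SH pool at 7.18. dkk3b, of a family of secreted Wnt inhibitors, fell by 0.52 (adjusted p = 0.0235), 1 of 26 genes of Wnt signaling (3.85% against 4.63% of all genes). In fits without 1 of the pools, the threshold was missed by cntn1a (4 of 8 pools, adjusted p up to 0.117), cdh2 (5 of 8 pools, adjusted p up to 0.0731), dkk3b (5 of 8 pools, adjusted p up to 0.0757), gfap (4 of 8 pools, adjusted p up to 0.126), ncam2 (5 of 8 pools, adjusted p up to 0.0932) and pmchl (3 of 8 pools, adjusted p up to 0.0738).

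Chaperones and heat shock proteins had 8 of 73 genes called (11% against 4.63% of all genes), with a median difference of 0.07. Besides the calreticulins, hspb6, a small heat shock protein (0.90, adjusted p = 0.0137), fkbp9, a prolyl isomerase of the endoplasmic reticulum (0.46, adjusted p = 0.00399), and hspa14, a ribosome-bound Hsp70 relative (0.37, adjusted p = 0.0462), rose in SH. hsf1 fell, as did dnajc12, a J-domain cochaperone, at 5.49, 5.84, 5.36 and 6.00 in the SH pools and 6.49, 6.56, 6.63 and 6.40 in the Nadia pools (-0.85 ± 0.17 (SE), adjusted p = 0.00689), and hspa12a, a distant Hsp70 relative (-1.07, adjusted p = 0.0464). Values for hspa5, the main Hsp70 of the endoplasmic reticulum, were 0.33 with an adjusted p of 0.124, and for hsp90aa1.1, a cytosolic Hsp90, 0.66 with 0.421. Without Nadia F2, 5 of the 73 were called. With the 8 arrays alone 4 were, and hspb6, hsf1 and hspa12a were not (adjusted p = 0.0707, 0.0656 and 0.0899). In translation, eif1axa (-0.62, adjusted p = 0.0239) and eif2s1a (-0.49, adjusted p = 0.00425), initiation factors of start codon choice and of initiator tRNA delivery, fell, and the release factor gspt1 rose (0.35, adjusted p = 0.0291), 3 of 42 genes (7.14%; 1 without SH M1 or Nadia M2). The other probe set of eif1axa went the opposite way and was not called (0.13, adjusted p = 0.553). When pools were left out 1 at a time, the call was lost for gspt1 (5 of 8 pools, adjusted p up to 0.093), eif1axa (4 of 8 pools, adjusted p up to 0.0697) and hspa12a (6 of 8 pools, adjusted p up to 0.13). Whether fkbp9 and hspa14 kept their calls in those fits was not looked at gene by gene.

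Membrane trafficking had 8 of 106 genes called (7.55% against 4.63% of all genes), 3 higher and 5 lower; without SH M2, 4 were called. Lower in SH were chmp3, an ESCRT-III subunit of endosome sorting, at 6.86, 7.03, 6.68 and 7.09 in the SH pools and 7.71, 7.66, 7.57 and 7.85 in the Nadia pools (-0.78 ± 0.10 (SE), adjusted p = 0.000207), ap2m1b, a clathrin adaptor subunit (-0.65, adjusted p = 0.012), trappc5, of the TRAPP complex (-0.62, adjusted p = 0.0207), sec31a, an outer coat protein of COPII vesicles (-0.56, adjusted p = 0.0306), and snx12, a sorting nexin (-0.54, adjusted p = 0.0167, with 0.00 at its other probe set). Higher were rab5aa, a GTPase of early endosomes (0.49, adjusted p = 0.00298), snx2, another sorting nexin (0.35, adjusted p = 0.027), and acbd3, a Golgi protein that binds acyl-CoA (0.49, adjusted p = 0.0212). Of 77 solute carriers, 5 rose and none fell (6.49%, against 4.63% of all genes called and 2.3% higher): slc20a2, slc22a31, of the organic ion transporters (1.00, adjusted p = 0.000817), slc37a4b, a glucose-6-phosphate carrier (0.72, adjusted p = 0.0218), slc38a7, a glutamine transporter (0.42, adjusted p = 0.0267, with 0.25 at an uncalled probe set), and slc35e1 (0.34, adjusted p = 0.0182). Without Nadia F2, 2 of the 77 were called, and without SH F1, SH M1 or Nadia M1, 3 were. With single pools left out in turn, the test was no longer passed by slc37a4b (4 of 8 pools, adjusted p up to 0.0752), slc38a7 (5 of 8 pools, adjusted p up to 0.0757), sec31a (6 of 8 pools, adjusted p up to 0.0965), trappc5 (4 of 8 pools, adjusted p up to 0.0633), acbd3 (SH M1 or Nadia M1, adjusted p up to 0.07), slc35e1 (3 of 8 pools, adjusted p up to 0.0609) and snx12 (SH M2, adjusted p = 0.0562). Whether rab5aa and snx2 kept their calls in those fits was not looked at gene by gene.

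Metabolic lists held 2 to 5 called genes each, at 4.35% to 10.5% of their members, against 4.63% of all genes. In the respiratory chain and ATP synthase list, 4 of 63 genes fell (6.35%; 2 without SH F1, SH F2, Nadia F1, Nadia F2 or Nadia M2), and the members that moved were ucp1, an uncoupling protein (-0.71, adjusted p = 0.0152), and the assembly factors sdhaf2 (-0.77, adjusted p = 0.0161), cox11 (-0.53, adjusted p = 0.0343) and ndufaf8 (-0.47, adjusted p = 0.0267), while no subunit of the complexes was called. ucp1 had 9.01, 8.49, 8.63 and 8.73 in the SH pools and 9.55, 9.26, 9.33 and 9.55 in the Nadia pools. In iron and heme, with 2 of 19 genes called (10.5%; 1 without SH F2, SH M1, SH M2, Nadia F2 or Nadia M2), aco1, an aconitase that also binds iron-responsive mRNA elements, fell (-0.94 ± 0.13 (SE), adjusted p = 0.000277), as did steap4, a metalloreductase (-0.45, adjusted p = 0.0348). fah and kyat1, enzymes of tyrosine breakdown and of kynurenine metabolism, fell by 0.68 and 0.61 (adjusted p = 0.00259 and 0.00449), 2 of 46 genes of amino acid metabolism (4.35%; 4 without Nadia M2); a second probe set of kyat1 differed by -0.33 and was not called. On the lipid list, with 5 of 80 genes called (6.25%; 2 without Nadia F2, and 3 without SH F2, SH M1 or Nadia M1), cers2a, a ceramide synthase, rose (0.76, adjusted p = 0.0306) and acss2, which makes acetyl-CoA from acetate, fell (-0.48, adjusted p = 0.0144). That list also took in gpatch3 by the pattern of its name; gpatch3 is no enzyme of lipid synthesis (-0.79, adjusted p = 0.0163). galk2 and pgm1 rose (0.47, adjusted p = 0.0462, and 0.30, adjusted p = 0.0418), 2 of 29 genes of carbohydrate metabolism (6.9%; 0 or 1 without any pool but Nadia M2); a second probe set of galk2 differed by 0.32 and was not called. RNA splicing and binding had 5 of 131 genes called (3.82%; 2 without SH F2, and 3 without SH M2, Nadia F2 or Nadia M1), with rbfox2, a splicing regulator of neurons and muscle, the most changed, at 5.86, 5.94, 6.04 and 5.80 in the SH pools and 6.76, 6.60, 6.41 and 7.19 in the Nadia pools (-0.83 ± 0.14 (SE), adjusted p = 0.00187). In fits without 1 of the pools, the threshold was missed by cers2a (6 of 8 pools, adjusted p up to 0.0953), pgm1 (7 of 8 pools, adjusted p up to 0.151), ndufaf8 (6 of 8 pools, adjusted p up to 0.0682), cox11 (5 of 8 pools, adjusted p up to 0.0966), galk2 (6 of 8 pools, adjusted p up to 0.125), steap4 (6 of 8 pools, adjusted p up to 0.102), acss2 (SH F2, adjusted p = 0.0508), ucp1 (SH F2, adjusted p = 0.0506), sdhaf2 (SH M2 or Nadia F2, adjusted p up to 0.0601) and gpatch3 (Nadia F2, adjusted p = 0.0597).

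By 1 probe set per gene, that of highest mean, the lists with no called gene were those of neurons, myelin, red blood cells, muscle, epithelium, eye, cilia and pituitary among the markers, and ion channels, complement, ubiquitin enzymes, hox genes, Notch signaling, tRNA synthetases, cytosolic ribosomal proteins, the aryl hydrocarbon receptor response, immediate early genes and the stress axis among the pathways. With all probe sets of the list genes counted, 3 were called for ubiquitin enzymes and 1 for Notch signaling. Over all 52 lists, which hold 1690 genes, 83 genes were called (50 without Nadia F2, and 55 without SH M1). On and off the lists together, 228 of 4922 genes were called (4.63%). Of the remaining markers, thbs3a, a thrombospondin of the extracellular matrix, rose (0.85 ± 0.10 (SE), adjusted p = 0.000124), 1 of 32 genes of meninges and connective tissue (3.12%). asmtl, a relative of the melatonin-making enzyme, rose (0.79 ± 0.10 (SE), adjusted p = 0.000193), 1 of 8 pineal genes (12.5%). cav2, a caveolin of endothelium, fell (-0.38, adjusted p = 0.0254), 1 of 12 genes of endothelium and pericytes (8.33%). neu3.2, a sialidase, fell (-0.67, adjusted p = 0.00162), 1 of 35 genes of the lysosome list (2.86%). casp2, a caspase, rose (0.66, adjusted p = 0.0378), and it and dedd1 were the 2 called of 40 genes of cell death (5%). mrpl30, 1 of 46 genes of the mitochondrial ribosome (2.17%), and psmd3, 1 of 26 of the proteasome (3.85%), rose by 0.35 and 0.35 (adjusted p = 0.0271 and 0.0454). When pools were left out 1 at a time, the call was lost for psmd3 (6 of 8 pools, adjusted p up to 0.159), casp2 (7 of 8 pools, adjusted p up to 0.115), mrpl30 (4 of 8 pools, adjusted p up to 0.0919) and cav2 (4 of 8 pools, adjusted p up to 0.0853).

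Where a gene had several probe sets, these often differed. Of 264 called genes, 195 had a single probe set and 69 had more. In 9 of the 69 all probe sets were called in 1 direction, in 12 (these 9 included) at least 2 were, in 56 exactly 1 was, and in 1, pcmt, an enzyme that repairs aged aspartate residues, probe sets were called in opposite directions. Of the 56 genes with 1 called probe set, 41 had every other probe set on the same side of 0 and 15 had at least 1 on the other. pcmt had 5.34, 6.01, 5.73 and 5.46 in the SH pools and 6.96, 6.85, 7.16 and 6.86 in the Nadia pools by 1 probe set (-1.32 ± 0.15 (SE), adjusted p = 7.16e-05) and 6.94, 6.70, 6.71 and 6.74 in the SH pools and 6.38, 6.05, 6.18 and 6.18 in the Nadia pools by another (0.58 ± 0.11 (SE), adjusted p = 0.00418), so that the gene has no single direction. eif4a1a, an RNA helicase of translation initiation, had 5.48, 6.13, 6.91 and 5.51 in the SH pools and 7.52, 8.39, 8.36 and 9.03 in the Nadia pools by its called probe set (-2.31 ± 0.41 (SE), adjusted p = 0.00301), and a difference of 0.31 by the other (adjusted p = 0.183). The same held for cops4, of the COP9 signalosome (-1.77 by the called probe set, and 0.38 by the other), and for cldng, a claudin of tight junctions (-1.57, against 0.15 and 0.46). The called probe sets of cops4 and cldng, and the uncalled one of cops4, end in _x_at, which marks probes that may bind other transcripts. The call of cldng was lost when any of 4 of the 8 pools was left out (adjusted p up to 0.109).

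Probe sets of cyp19a1b, calr and add3a agreed in sign and not in size. cyp19a1b differed by -1.44 at its bright probe set and by -0.46 and -0.20 at the dimmer ones, which were not called (adjusted p = 0.245 and 0.372). add3a differed by -2.27 and -0.69 (adjusted p = 0.124 for the second). For wls the uncalled probe sets differed by 0.57 and 0.00, and for top1a, with 4 probe sets, the differences were 1.13, 0.49, 0.45 and -0.25, the first and the second called. insra, an insulin receptor, znhit1, tspan4a, nutf2, thap4, rnf19a and pgm1 each had 2 called probe sets of the same sign, although an uncalled probe set of insra differed by -0.10. The part of probe sequence in these differences was not tested.

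**Figure D3:**
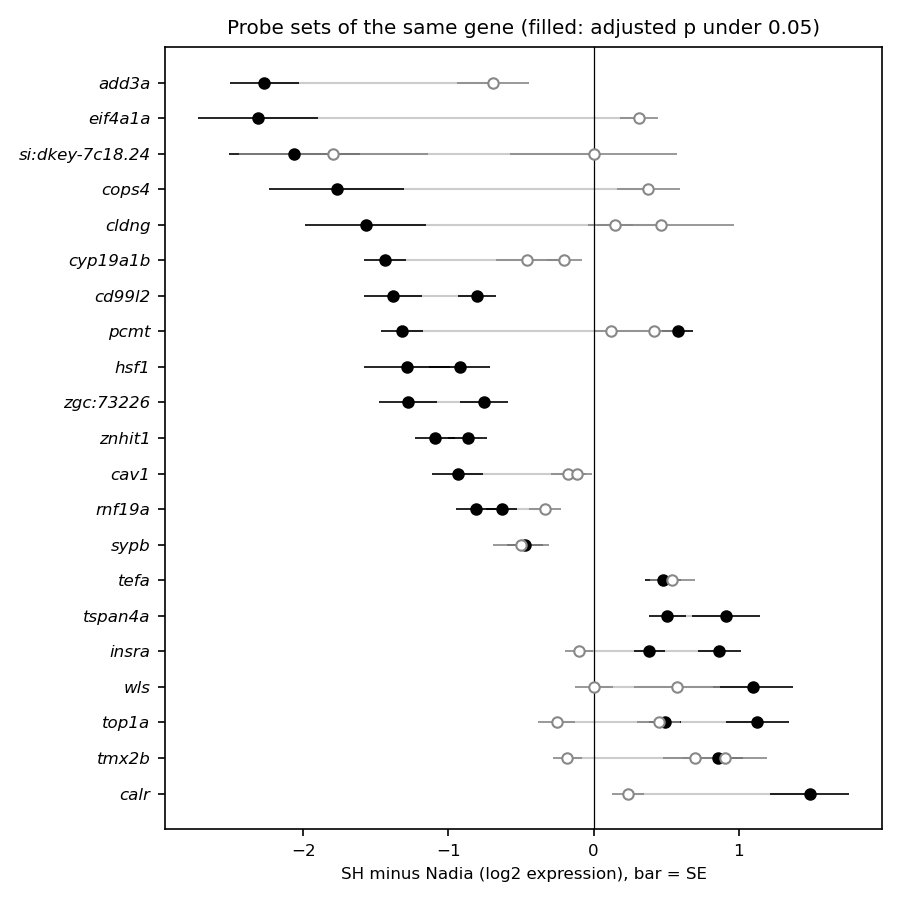
SH minus Nadia difference in log2 expression (horizontal axis, bars SE) of each probe set of 21 genes (rows), filled where the adjusted p is under 0.05. Of these genes, pcmt has filled points on both sides of 0 (-1.32 and 0.58), and eif4a1a, cops4 and cldng have a filled point below 0 and open points above it.

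Clock genes, which drive daily rhythms and so depend on the hour at which a brain is taken, split the Nadia pools. The sources used here give no hour of sampling. Of 27 clock genes, 1 was called (3.7% against 4.63% of all genes). It was tefa, a PAR bZIP transcription factor with a daily rhythm (0.48, adjusted p = 0.0284), at 9.71, 9.53, 9.56 and 9.38 in the SH pools and 9.36, 9.01, 8.72 and 9.18 in the Nadia pools. Its second probe set had a difference of 0.54 (adjusted p = 0.0524). In several genes with greater differences that did not pass, the pool Nadia M2 stood with the SH pools. ciarta, a repressor of the clock, had 6.28, 7.92, 7.10 and 5.47 in the SH pools and 5.11, 4.66, 4.38 and 7.79 in the Nadia pools. nfil3-5, of the bZIP factors that oppose tefa, had 7.67, 7.63, 6.90 and 7.68 in the SH pools and 8.70, 8.69, 8.87 and 7.07 in the Nadia pools. rorcb, a nuclear receptor that activates bmal1 genes in mammals, had 5.04, 5.00, 4.89 and 5.60 in the SH pools and 6.11, 6.63, 6.65 and 4.97 in the Nadia pools. In each of these, Nadia M2 lay among the SH pools, while the other Nadia pools lay together. Without Nadia M2, 9 of the 27 were called, beside 496 of all 7922 probe sets. Of the 9, 6 were higher in SH (ciarta, nr1d2a, bhlhe41, tefa, cry1a and nr1d2b) and 3 lower (bmal1a, nfil3-5 and rorcb). Without SH M2 the count of clock genes was 3, beside 316 of all 7922 probe sets. Without Nadia F1 it was 1, and without each of the other 5 pools it was 0. The differences without Nadia M2 were 1.98 for ciarta and -1.33 for rorcb (adjusted p = 0.0109 and 0.000721). The part of sampling hour in these values was not tested. With single pools left out in turn, the test was no longer passed by tefa (5 of 8 pools, adjusted p up to 0.0877).

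**Figure D4:**
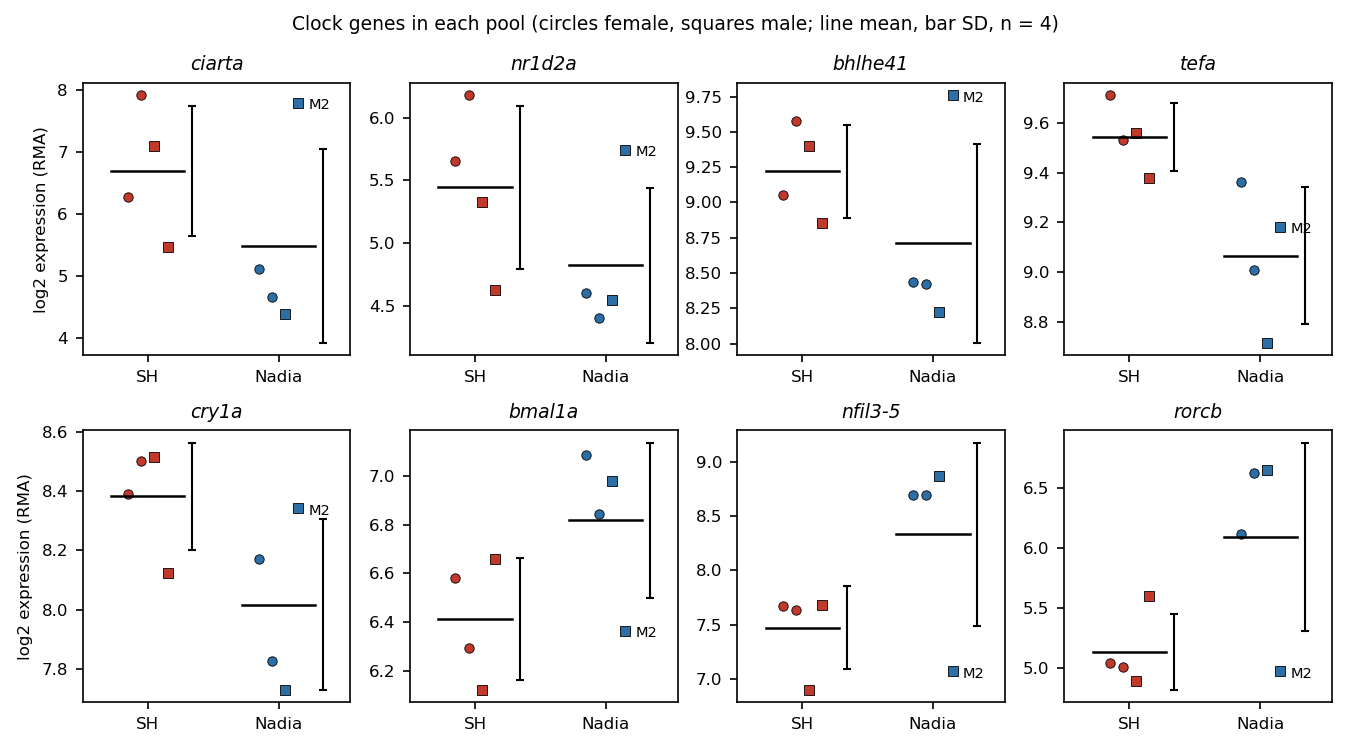
Log2 expression (vertical axes, a separate scale for each gene) of 8 clock genes in the SH pools (red, left) and the Nadia pools (blue, right), with circles for female and squares for male pools, a line for the mean and a bar for the SD. The pool Nadia M2, marked in each panel, lies away from the other Nadia pools in every panel but those of tefa and cry1a. In ciarta it is at 7.79 against 4.38 to 5.11, and in cry1a at 8.34 against 7.73 to 8.17.

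Skin, muscle and pituitary transcripts varied from pool to pool in both strains. Over the 36 epithelial markers the mean was 5.82, 5.74, 6.63 and 5.75 in the SH pools and 5.84, 7.87, 6.54 and 6.42 in the Nadia pools, with Nadia F2 far above the rest. None of these markers was called, and 2 of 36 had a positive difference, against 2546 of all 4922 genes. Their median difference was -0.68. krt4, a keratin of skin, was 11.51 in Nadia F2 and 5.74 to 7.62 in all other pools (difference -1.75, adjusted p = 0.219). Among the called decreases, others had the same high pool. si:dkey-7c18.24 had 4.47, 5.13, 5.65 and 5.05 in the SH pools and 5.50, 8.74, 6.70 and 7.61 in the Nadia pools (-2.06 ± 0.45 (SE), adjusted p = 0.0123), a probe set without a symbol had 2.97, 3.41, 3.86 and 3.13 in the SH pools and 3.78, 6.71, 4.65 and 6.08 in the Nadia pools (-1.96 ± 0.48 (SE), adjusted p = 0.0229), and cops4 had 3.52, 3.52, 3.58 and 3.63 in the SH pools and 4.94, 7.21, 5.54 and 3.64 in the Nadia pools. The call of the probe set without a symbol was lost without SH F1, SH M2, Nadia F2 or Nadia M2 (adjusted p up to 0.0712), and the uncalled probe sets of si:dkey-7c18.24 differed by -1.79 and 0.00. With the 8 arrays alone, si:dkey-7c18.24, the probe set without a symbol and cops4 were not called (adjusted p = 0.0801, 0.0801 and 0.131). The first and the second of these overlapped between the strains, and the part of epithelial tissue in them was not tested. Over the 28 muscle markers the mean was 8.01, 7.60, 6.21 and 7.77 in the SH pools and 7.09, 8.06, 6.31 and 7.04 in the Nadia pools, and over the 5 pituitary hormone genes 6.56, 8.12, 4.22 and 5.95 in the SH pools and 6.27, 7.41, 4.204 and 5.83 in the Nadia pools. M1 was the lowest pool of each strain on both lists, and growth hormone, gh1, ran between 5.41 and 12.09 in SH and between 5.05 and 11.51 in Nadia, so that strain differences in these genes were not detectable at this spread (gh1 0.48, adjusted p = 0.872). In fits without 1 of the pools, the threshold was missed by cops4 (5 of 8 pools, adjusted p up to 0.0847).

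**Figure D5:**
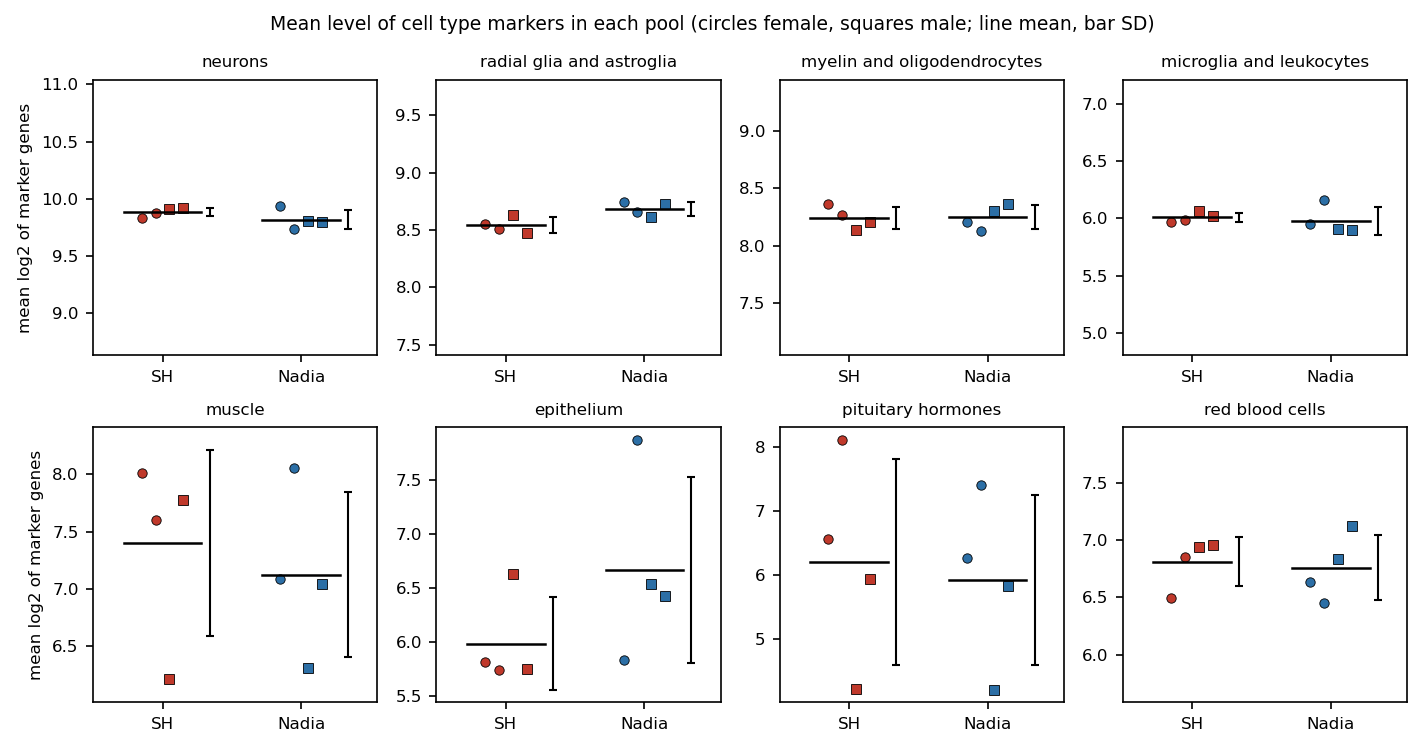
Mean log2 expression of the marker genes of 8 cell types or tissues (vertical axes, spanning at least 2.4 log2 units in every panel) in the SH pools (red, left) and the Nadia pools (blue, right), with circles for female and squares for male pools, a line for the mean and a bar for the SD. The lists of neurons, glia and myelin vary little from pool to pool, while epithelium reaches 7.87 in Nadia F2 and pituitary hormones run from 4.204 to 8.12.

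Whether strain acted alike in females and males was tested as an interaction of strain and sex. No probe set of 7922 passed (0%; smallest adjusted p = 0.764, with 365 at an unadjusted p under 0.05, and 0 by robust eBayes with 348). Among the 6 genes named for the size of this interaction was fkbp5, a cochaperone of steroid receptors that glucocorticoids induce in mammals and fish. It had 8.83, 9.61, 8.73 and 6.62 in the SH pools and 5.06, 5.27, 7.04 and 8.74 in the Nadia pools. The SH females were far above the Nadia females, by 4.05, while the males differed by -0.21 on average (adjusted p = 0.764 for the interaction and 0.185 for the strain). klf9, a transcription factor gene that also responds to glucocorticoids, had 8.45, 9.36, 7.77 and 6.48 in the SH pools and 6.06, 5.97, 6.97 and 8.32 in the Nadia pools, with differences of 2.89 in females and -0.52 in males. For fkbp5 and klf9, M2 was the lowest SH pool and the highest Nadia pool, so the male difference averages pools that lay far apart within each strain. The others were cebpd (1.67 and -0.75), and, with the opposite order, the photoreceptor genes gngt2b (-1.100 and 1.46) and pde6ha (-1.94 and 1.27), and zgc:173729 (-2.74 and 0.01), whose level was 9.19 in Nadia F2 and at most 5.34 in the other SH and Nadia pools. Without Nadia F1, which leaves F2 as the only female Nadia pool, 26 probe sets passed the interaction, among them the skin genes krt4, krt94, pkp1b, dspa, col17a1b and cdh1; without each of the other 7 pools, 0 did.

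The SH and Nadia means were also placed among the 4 strain means. Of the 205 probe sets higher in SH, SH was the highest and Nadia not the lowest in 67, Nadia the lowest and SH not the highest in 38, both outermost in 92 and neither in 8. Of the 243 lower in SH, the counts were 71, 46, 110 and 16. These probe sets were chosen by the SH minus Nadia difference, so the counts are a description. The mean of TM1 and Gaighatta was nearer to Nadia for 133 of 205 and 147 of 243. ptgr1.1, dedd1 and zgc:113516 had TM1 and Gaighatta means close to that of Nadia (5.52 and 5.45 for ptgr1.1, against 8.003 in SH and 5.64 in Nadia). For gpx4a both were close to SH (9.09 and 9.17, against 9.15 in SH and 8.41 in Nadia). For selenop they were split, with TM1 (9.84) close to SH (9.90) and Gaighatta (10.90) nearer to Nadia (10.61).

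Several other genes that the study names did not pass between these strains. col2a1a, a cartilage collagen, had 5.34, 5.22, 5.61 and 5.29 in the SH pools and 4.79, 4.25, 4.86 and 4.69 in the Nadia pools and just missed the threshold (0.72, adjusted p = 0.0506), and the collagens col1a2 and col9a2 were not called (0.39 and 0.36, adjusted p = 0.569 and 0.131; a second probe set of col1a2 differed by 0.10). igf1 (0.69, adjusted p = 0.2), cyp1a, a target of the aryl hydrocarbon receptor (-0.70, adjusted p = 0.495), stx6 (-0.41, adjusted p = 0.486), bhlhe40 (-0.24, adjusted p = 0.253), eif4enif1 (0.30, adjusted p = 0.173) and the alpha globin hbaa1 (0.03, adjusted p = 0.938) did not pass, nor did acbd4 (0.12, adjusted p = 0.423). Across probe sets, which are no independent replicates, r was 0.975 to 0.987 among SH pools and 0.973 to 0.984 among Nadia pools, and between SH and Nadia pools it was 0.958 to 0.978. The 4 pools per strain limit the precision of each difference.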

How the data were processed

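Brain RNA of 16 pools, 4 of each of 4 strains, was hybridised to 1-colour Affymetrix arrays. The authors background-corrected, quantile-normalized and summarised the probes by RMA with the affy package (the sources used here give no version) and removed unexpressed probe sets. The paper also describes removing those with an interquartile range under 0.5. In the deposited values, however, only 854 of the 7922 tested probe sets reach 0.5, and the reason was not tested. The deposited log2 values were used with no further normalization. Of 7958 probe sets, 36 controls were left out. Symbols came from the platform annotation: 5639 of the 7922 tested probe sets had 1 symbol, 54 had several and 2229 had none. Of the called probe sets without one, 45 had a symbol in the tables of the study.

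A model with a term for each strain label was fitted to all 16 arrays with limma 3.58.1 in R 4.3.3, and the contrast SH minus Nadia was tested with eBayes. Benjamini-Hochberg adjustment ran over all 7922 probe sets, with a threshold of 0.05. A factorial model of strain by sex gave the interaction. The fit was tested on simulated data in which 200 probe sets were changed. For each list, 1 probe set per gene was used, that of highest mean, and counts and medians are given with no test. By rule, named were the 12 greatest increases and decreases with a symbol, up to 5 called genes per list and 3 of special role, genes the study names, up to 6 for the sex difference, and probe sets without a symbol among the 10 greatest differences. Further genes were named outside this rule with their values known, and not all of them are marked. Among the unmarked ones are fkbp9, hspa14, rab5aa, snx2, zgc:110832, znhit1 and tspan4a. The members and lists were chosen with earlier results of these data known. Alternatives were other covariates, variance models, filters, normalizations and thresholds, the 8 arrays alone, and each pool left out. Pools of a strain came from separate tanks of 1 sex each, and the main model has no term for sex. Its p-values thus rest on the spread among pools within the 4 strain labels, which holds differences between the sexes as well as between tanks.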

Additional observations from a re-analysis of the deposited data

Results flagged for a closer look

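In 22 of 330 groups of 4 pools (the SH or the Nadia pools of a named probe set, or of a marker list), 1 pool stood apart from the other 3, with a gap to its nearest neighbour above 0.829 of the range of the group. Chance marks about 1 group in 20, and no cause was tested.

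Among probe sets higher in SH, the pool that stood apart was Nadia M1 for ptgr1.1 (5.37, the others at 5.71 to 5.75) and pcyt1aa (4.75, the others at 4.24 to 4.30). It was Nadia M2 for spryd7b (7.63, the others at 6.08 to 6.34) and dedd1 (7.17, the others at 7.40 to 7.44). In xrcc6 the pool SH F2 was low, at 6.99, against 7.47 to 7.51 in the other SH pools, and in glrba Nadia F2 was low, at 7.27, against 7.63 to 7.66.

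Among probe sets lower in SH, cldng was at 5.00 in SH F2 and 6.396 to 6.59 in the other SH pools, and pmchl was at 7.37 in SH M1 and 7.84 to 7.90 in the others. The probe set of zgc:64003 had 2.67 in SH F2 and 2.73 to 2.74 in the other SH pools, a small gap in a narrow range. Nadia F1 stood apart for gad2 (7.22, the others at 6.15 to 6.33), LOC100002043 (4.19, the others at 5.69 to 5.78) and setdb1b (6.68, the others at 6.47 to 6.50). Nadia M1 stood apart for steap4 (3.92, the others at 4.34 to 4.37) and acss2 (6.79, the others at 6.66 to 6.67).

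Of the uncalled genes, zgc:173729 had 9.19 in Nadia F2 and 4.57 to 5.34 in the other Nadia pools, and hspa5 had 8.70 in Nadia M2 and 8.16 to 8.22 in the others. The alpha globin hbaa1 was at 12.28 in SH F1, against 12.59 to 12.61 in the other SH pools, b2m was at 9.15 in SH M2, against 9.32 to 9.35, and stxbp3 was at 7.29 in SH F1, against 7.05 to 7.09. The inflammatory caspase caspb was low in the F1 pool of both strains, at 4.23 in SH F1 and 4.33 in Nadia F1. The mean of the epithelial markers was 6.63 in SH M1 and 5.74 to 5.82 in the other SH pools.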

How the results depend on the processing

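None of the 101 called probe sets named by the stated rule changed sign under the alternatives tried. The signs of the other called probe sets were not compared. With only the 8 arrays labelled SH and Nadia, 284 probe sets were called (131 higher and 153 lower in SH) and 52 genes on the lists. Among the named genes not called in that fit were xrcc6 and prdx2 (adjusted p = 0.0653 and 0.0628). Among the 854 probe sets with an interquartile range of at least 0.5, 189 were called (78 and 111) and 37 list genes; with a mean of at least 5, 50 differed 2-fold. At an adjusted p under 0.01, 164 were called (75 and 89) and 28 list genes. Leaving out single pools gave 264 to 496 called probe sets, 115 to 239 higher, 149 to 257 lower, 70 to 86 at least 2-fold, 50 to 98 list genes and 0 to 26 interactions. The lowest counts were without Nadia F2 and the highest without Nadia M2, except for the 2-fold probe sets (lowest without SH F1, highest without Nadia F1) and the interactions (26 without Nadia F1). Sex as a covariate (473), the factorial model (412), an intensity trend (447), robust eBayes (424), array weights (543), centring on the median (458) and repeated quantile normalization (463) left the count within 1.5 times. With the replicate number as a block, 507 were called, 421 of them among the 448. Deviations of same-numbered pools correlated at 0.20 for F1, 0.03 for F2, 0.35 for M1 and -0.18 for M2. The F1 and M1 pools of each strain correlated best with the same-numbered pool of the other strain, and the F2 and M2 pools did not. Whether pools of the same number shared a batch was not tested. Of the 101 called probe sets named by that rule, 47 were called under every alternative that kept the threshold and the probe sets. Called probe sets outside the 101 were not followed singly in the alternatives. Apart from fewer probe sets, arrays or a stricter threshold, the cause of these changes was not tested. The limits are 4 pools per strain, dim probe sets near background and probe sequence.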

Other observations

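The genes below were chosen after their values had been seen. A trio of bright probe sets without a symbol rose in SH. The brightest had 11.54, 11.33, 11.29 and 11.83 in the SH pools and 9.93, 10.41, 9.73 and 9.89 in the Nadia pools (1.51 ± 0.19 (SE), adjusted p = 0.000178). The next had 11.29, 10.86, 10.86 and 11.51 in the SH pools and 9.75, 9.96, 9.48 and 9.54 in the Nadia pools (1.45 ± 0.19 (SE), adjusted p = 0.000177), and the dimmest of the trio had 11.14, 10.94, 10.73 and 11.38 in the SH pools and 9.57, 9.99, 9.40 and 9.52 in the Nadia pools (1.43 ± 0.16 (SE), adjusted p = 8.75e-05). In each, M2 was the highest of the SH pools and F2 of the Nadia pools, and the strains did not overlap.

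Some called genes were picked singly. insra, an insulin receptor, was higher at 2 called probe sets (0.87 and 0.38, adjusted p = 0.00213 and 0.0442), with -0.10 at an uncalled one. Also higher were tsc1a, of the complex that restrains mTOR (0.61, adjusted p = 0.0207), and prkcea, a protein kinase C (0.65, adjusted p = 0.0422). ppargc1b, a coactivator of energy metabolism, rose too (0.75, adjusted p = 0.0266, with 0.37 at an uncalled probe set). nrg1, a ligand of ErbB receptors, fell (-0.64, adjusted p = 0.026). By the names of the study, calm1a, a calmodulin, fell by 0.75 (adjusted p = 0.0443). Other called genes were rbp4, a carrier of retinol (-0.71, adjusted p = 0.0141), cav1, a caveolin (-0.94, adjusted p = 0.00439 at 1 probe set, with -0.17 and -0.12 at the others, which were not called), and mgst3a, a microsomal glutathione transferase (-0.88, adjusted p = 0.0305). These are values of single genes, and no list of them was tested. Over all genes, 228 of 4922 were called (4.63%). Uncalled genes of related function are not given. Whether the calls in this section held with single pools left out was not looked at.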
